A study of Homo sapiens with 24 samples.

Results

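The BRG1 and BRM intron or distal sites are places where a called BRG1 peak, annotated as intron or distal, met a called BRM peak but no called SNF5 peak. They were chosen by the deposited peak lists themselves. A site is a BRG1 peak annotated Intron or Distal by the authors, narrower than 3000 bp, that shares at least 1 bp with a BRM peak and none with a SNF5 peak. This rule selected 5257 sites out of 51504 BRG1 peaks, made up of 3051 intron and 2206 distal sites. Among the 30501 BRG1 intron or distal peaks under 3000 bp they were 17.2%. Another 24557 of these peaks met neither BRM nor SNF5 and are called BRG1-only peaks below, 604 met all 3 subunits, and 83 met SNF5 without BRM.

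The peaks came from RWPE1, an established line of benign prostate epithelial cells, made to carry the long noncoding RNA SCHLAP1 from a lentivirus and kept under 2.5 ug/mL blasticidin. Chromatin of these SCHLAP1 cells was fixed in 0.3% formaldehyde, cut with MNase and precipitated with antibodies to BRG1, BRM or SNF5, with 2 samples in each of these groups. The series also holds histone marks in SCHLAP1 and LACZ cells, which were not analysed here, and LACZ cells have no subunit data here, so nothing below bears on what SCHLAP1 does. Each subunit has 1 deposited list of positions, with no read count, height or p-value. The depth behind the lists is therefore unknown, no value has a spread between replicates, and no p-value could be computed. Intervals are exact 95% binomial intervals that treat peaks as trials. They cover counting error only and are too narrow where neighbouring peaks depend on each other.

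BRG1 (SMARCA4) and BRM (SMARCA2) are the alternative ATPase motors of the SWI/SNF complexes, which slide or evict nucleosomes with the energy of ATP. One complex holds one of the motors, and which complexes or cells gave the peaks at a place cannot be told from these lists. SNF5 (SMARCB1) is a core subunit of the canonical and polybromo forms of the complex and is not part of the noncanonical form. Away from promoters, SWI/SNF is known to bind enhancers beside transcription factors of the AP-1, TEAD and RUNX families. A missing peak in these lists means that none was called there, not that the protein was shown to be absent.

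The sites rarely covered an annotated gene start, but when they did, the DNA there was of more than one kind, and the sequences show the range. Of the RefSeq promoter windows (250 bases before to 50 after a gene start, GRCh38.p14), 141 lay wholly inside a site, and 103 of these belonged to long noncoding RNAs and 38 to protein-coding genes. The 6 windows shown lay wholly inside a site and had the widest BRM peaks among the windows considered. Each line gives the 120 bases before the gene start, read on the gene's strand, with CpG dinucleotides in capitals.
LOC124902502: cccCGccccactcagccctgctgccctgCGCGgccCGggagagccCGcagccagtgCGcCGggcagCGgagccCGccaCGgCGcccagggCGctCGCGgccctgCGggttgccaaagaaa
LOC102725238: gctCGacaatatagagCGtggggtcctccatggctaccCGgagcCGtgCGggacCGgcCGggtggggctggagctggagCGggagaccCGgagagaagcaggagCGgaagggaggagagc
LOC124900302: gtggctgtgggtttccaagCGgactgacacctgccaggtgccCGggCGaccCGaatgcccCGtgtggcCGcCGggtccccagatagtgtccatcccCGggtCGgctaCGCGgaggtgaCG
NALT1: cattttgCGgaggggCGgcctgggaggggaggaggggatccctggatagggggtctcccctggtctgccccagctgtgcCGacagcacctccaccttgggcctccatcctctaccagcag
LOC124904533: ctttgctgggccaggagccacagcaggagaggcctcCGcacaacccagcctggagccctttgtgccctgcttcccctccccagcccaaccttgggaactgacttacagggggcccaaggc
GRID1-AS2: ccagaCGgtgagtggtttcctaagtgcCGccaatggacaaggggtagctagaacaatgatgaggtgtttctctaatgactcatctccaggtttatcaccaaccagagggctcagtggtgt

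All 6 genes are long noncoding RNAs. LOC124902502 (chr10:112952343-112952462, minus strand) held 27 CpG in its whole window, LOC102725238 (chr17:42423067-42423186, plus strand) held 32 and LOC124900302 (chr11:68313329-68313448, plus strand) held 33. NALT1 (chr9:136547722-136547841, plus strand) held 9, LOC124904533 (chr1:227945738-227945857, plus strand) held 3 and GRID1-AS2 (chr10:85643945-85644064, plus strand) held 4. In these 6 the windows fell into a CpG-dense and a CpG-poor set, and the BRM peak covered the gene start in all 3 of the dense set and in NALT1, but not in LOC124904533 or GRID1-AS2. The authors annotated all 6 sites as Intron, with distances of 1006 to 1421 bp to the nearest transcription start site (TSS) of their own gene models, which need not be a RefSeq start.

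Over all 141 windows inside sites the median number of CpG was 12, with quartiles of 5 and 27. The count was close to that of RefSeq windows at large, with a median of 14. Gene type differed, with long noncoding RNAs at 103 of the 141 windows inside sites and at 12894 of all 34943 windows. This was not particular to the sites. Long noncoding RNAs also made up 110 of the 131 windows inside BRG1-only peaks and 34 of the 48 inside peaks with all 3 subunits. The part of gene type was not tested. The median was 4 in the 131 windows inside BRG1-only peaks, 21 in the 48 windows inside peaks with all 3 subunits, and 28 in the 4578 windows inside BRG1 promoter peaks with BRM and without SNF5. The median GC content was 62.3% inside sites and 47.7% inside BRG1-only peaks, against 58.7% over all 34943 RefSeq windows. Start windows in sites thus lay between those of BRG1-only peaks and those of promoter peaks in CpG content.

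The motif of AP-1, a factor of growth and stress signalling made of JUN and FOS family proteins, was more frequent in these windows than in RefSeq windows at large. TGANTCA, which reads the same on both strands, was found in 27 of the 141 windows inside sites (19.1%, 13.0 to 26.6), in 34.4% of those inside BRG1-only peaks (26.3 to 43.1), in 10.4% of those inside peaks with all 3 subunits (3.47 to 22.7), in 5.29% of those inside BRG1 promoter peaks with BRM and without SNF5, and in 7.72% of all RefSeq windows. The share moved with CpG content. In windows with under 15 CpG it was 30.1% inside sites (22 of 73, 19.9 to 42.0), 42.5% inside BRG1-only peaks (45 of 106, 32.9 to 52.4) and 12.2% over all RefSeq windows. In windows with 15 or more CpG it was 7.35% inside sites (5 of 68, 2.43 to 16.3), against 0 of 25 inside BRG1-only peaks and 3.03% over all windows. The intervals of sites and BRG1-only peaks overlapped within both CpG classes. RefSeq windows at large hold a smaller share of long noncoding RNAs than windows inside sites, and the part of this in the AP-1 shares was not tested. The other motifs, searched on both strands, did not set the sites apart from other intron or distal peaks. CATTCC, the TEAD motif, was found in 21.3% of windows inside sites (14.8 to 29.0), 19.1% inside BRG1-only peaks (12.7 to 26.9) and 18.75% inside peaks with all 3 subunits, against 14.0% of all windows. TGTGGTT, the RUNX motif, was found in 6.38% inside sites (2.96 to 11.8), 4.58% inside BRG1-only peaks (1.70 to 9.70) and 4.27% of all windows. The motif of the epithelial Grainyhead-like factors (AACC and GTT with 1 base between them) was found in 4 windows inside sites (2.84%, 0.778 to 7.10), in 5.34% inside BRG1-only peaks (2.18 to 10.7) and in 1.73% of all windows. The intervals of sites and BRG1-only peaks overlapped for all 3 motifs.

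The AP-1 matches are shown with 10 bases on each side, on the gene's strand and with the match in capitals, for the 6 windows with the widest BRM peaks among those with a match, a choice made after the matches were seen.
GRID1-AS2: gtttctctaaTGACTCAtctccaggtt
PRDM11: ccccgggtagTGAGTCAcacacgccgc
LOC124901448: cctcccacagTGAGTCAcagaaactgc
LOC105376239: agggcctgagTGAATCAtatggtaaat
LOC105378678: acagaccacaTGAGTCAgctccctccc
ENEMAL: tgcttcccggTGACTCAgcgcccggcg

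These lie at chr10:85644010-85644036 (GRID1-AS2, plus strand), chr11:45181003-45181029 (PRDM11, plus), chr6:158853479-158853505 (LOC124901448, plus), chr9:116837737-116837763 (LOC105376239, plus), chr1:41433138-41433164 (LOC105378678, plus) and chr11:65477577-65477603 (ENEMAL, minus). PRDM11, a gene of the PRDM zinc finger family, is the protein-coding one of the 6, and its match began 23 bases before the gene start in a window with 32 CpG. A match of letters is a description and does not show that AP-1 bound there.

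At the sites the BRM peak was narrower than the BRG1 peak and mostly lay inside it. The BRM peak had a median width of 459 bp (quartiles 362 and 655) and the BRG1 peak 1019 bp (quartiles 693 and 1417), with a median ratio of 0.51 within a site. BRM covered a median of 48.9% of the BRG1 peak. The centres lay a median of 151 bp apart (quartiles 67 and 279), which was 30.2% of the distance from the BRG1 centre to the peak's edge. The rule asks for an overlap, which by itself keeps the centres close, so these values are a description and do not show that BRM favours the middle of the BRG1 peak.

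BRM centres lay within 150 bp of the BRG1 centre at 49.8% of sites (48.4 to 51.1), and the BRM peak lay wholly inside the BRG1 peak at 67.7%. The offset had no side along the chromosome, with 49.9% of BRM centres at lower coordinates than the BRG1 centre (48.6 to 51.3). BRM was the wider peak at 10.7% of sites. At 4793 sites there was 1 BRM peak, at 427 there were 2, at 34 there were 3 and at 3 there were 4. In peaks with all 3 subunits the centres lay a median of 169.75 bp apart and BRM covered 64.1% of a BRG1 peak that was itself wider, at 1435.5 bp. Scaled to the distance from the BRG1 centre to the edge, the offset there was 24.7% (22.5 to 27.5), smaller than the 30.2% at sites.

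**Figure D1:**
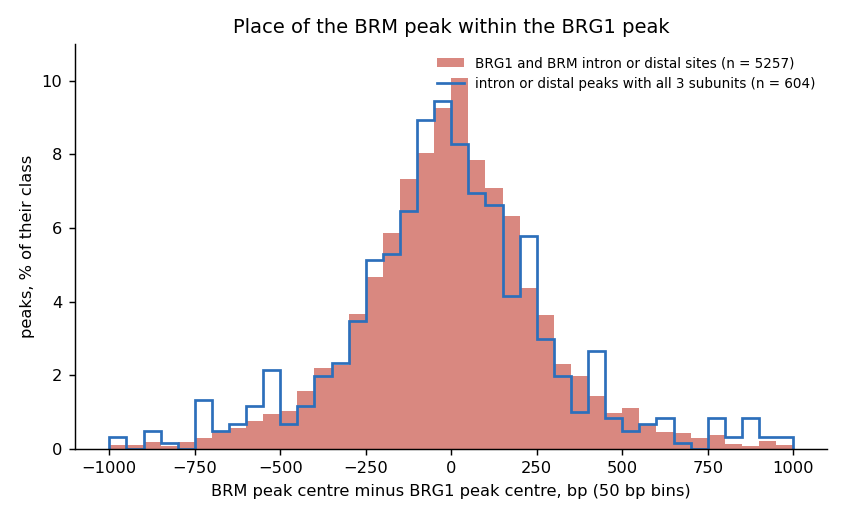
Position of the centre of the largest-overlap BRM peak relative to the BRG1 peak centre, in bp, as a percent of peaks in 50 bp bins, for the 5257 sites (filled) and the 604 peaks with all 3 subunits (line). The rule's overlap bounds the offset, and the 2 bins beside 0 hold 9.26% and 10.1% of sites.

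Seen from BRM, 5628 BRM peaks met a site, 25.4% of all 22157 BRM peaks. Of the 7494 BRM peaks annotated as intron or distal, 5307 (70.8%) met a site. BRM peaks of 2 kb and more occurred at a few sites. A site 2597 bp from the TSS of EFNA5, an ephrin ligand of Eph receptors (chr5:107672714-107674274), met 2 BRM peaks, the wider of them 3718 bp. PIEZO1, a mechanically gated ion channel, had an intron site of 923 bp (chr16:88782094-88783016) under a BRM peak of 3487 bp. GADD45B, a stress-response gene, had a distal site of 677 bp (chr19:2474406-2475082) under a BRM peak of 3485 bp that the authors annotated as Promoter. The closest SNF5 peak lay 225 bp from the EFNA5 site, 28385 bp from the PIEZO1 site and 97 bp from the GADD45B site. The BRM peak was annotated Promoter at 187 sites, 3.56% of all. On chromosome 9, a single BRM peak of 2256 bp (chr9:129412628-129414883) covered 2 sites named for AL353803.1 and 216 bp of another one of 510 bp.

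The share of BRG1 peaks that were sites depended on how wide the BRG1 peak was. It was 5.38% (670 of 12445) for BRG1 intron or distal peaks under 500 bp, 15.9% from 500 to under 1000 bp, 37.5% from 1000 to under 1500 bp and 57.1% (1120 of 1962) from 1500 to under 3000 bp. BRG1-only peaks had a median width of 515 bp, against 1019 bp at sites. Wide peaks have more bases in which to meet BRM, and width can also follow signal and depth, whose part was not tested. Most of the comparisons below are therefore also given within width classes.

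The sites lay closer to gene starts than BRG1-only peaks did and were less often in introns. They lay a median of 7609 bp from the nearest TSS (7286 to 7989), against 9938 bp (9718 to 10163) for BRG1-only peaks, and it was 6436 bp for peaks with all 3 subunits. Introns held 58.0% of sites (56.7 to 59.4) and 64.8% of BRG1-only peaks (64.2 to 65.4). The remaining 42.0% of sites were distal.

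The median distance was shorter at sites than at BRG1-only peaks in every width class. In BRG1 peaks under 500 bp it was 5545.5 bp at sites and 9534 bp in BRG1-only peaks, and in those of 1500 bp and more it was 7996 bp at sites and 12433.5 bp in BRG1-only peaks. The intron share was also lower at sites in all 4 width classes, with 53.4% at sites and 64.5% in BRG1-only peaks under 500 bp. By chromosome, among the 22 with 20 or more sites, the distance was shorter at sites on 19 (not on 4, 18 and 22) and the intron share lower on 21 (not on 19). No replicate test of these differences was possible.

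By distance, 24.8% of sites lay between 999 bp and 3 kb from a TSS, 33.1% between 3 and 10 kb, 28.6% between 10 and 30 kb, 12.3% between 30 and 100 kb and 1.20% beyond 100 kb. Of all BRG1 intron or distal peaks, 20.9% were sites in the nearest of these bins and 9.21% in the farthest. Intron sites lay a median of 5780 bp from a TSS and distal sites 10996 bp. The farthest site was named for the long noncoding RNA LINC01823 (chr2:122235957-122236937), 445953 bp from its TSS. A site of 904 bp lay 309358 bp from the TSS of UTRN, which encodes utrophin, a relative of dystrophin (chr6:145147958-145148861). The next 3 were named for AL355537.1 at 283427 bp, UBE2V1P10 at 219526 bp and AL353753.1 at 195000 bp.

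**Figure D2:**
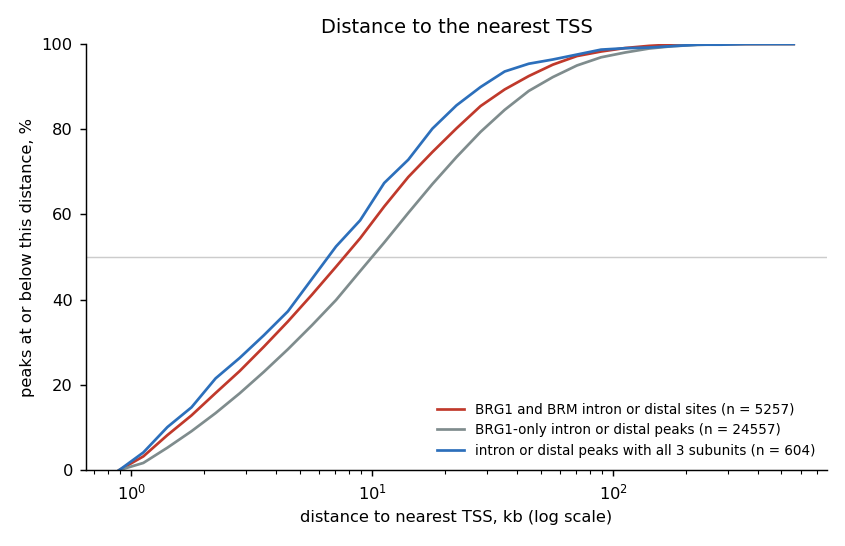
Cumulative percent of peaks (y axis) by distance to the nearest TSS in kb on a log scale (x axis) for the sites, the BRG1-only peaks and the peaks with all 3 subunits. The sites' curve lies to the left of that of BRG1-only peaks, with medians of 7609 and 9938 bp, and the curve of peaks with all 3 subunits reaches 50% at 6436 bp.

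Within genes of 20 kb or more, intron sites were spread along the gene as BRG1-only peaks were. Of the 1452 intron sites whose middle lay inside their named gene, 39.5% fell in the first 25% of its length (36.9 to 42.0), against 39.3% of BRG1-only intron peaks (38.2 to 40.4). The median position was 33.9% of the gene length from its start for sites and 34.5% for BRG1-only peaks.

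A RefSeq gene start was covered by 174 sites, 3.31% (2.84 to 3.83), against 0.819% of BRG1-only peaks (0.710 to 0.939) and 8.11% of peaks with all 3 subunits. The start of a protein-coding gene was covered by 52 sites, 0.989%, against 0.155% of BRG1-only peaks. Sites covered a start more often in each width class, by 1.497 to 3.46 percentage points.

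The genes that sites were named for had BRG1 and BRM promoter peaks somewhat more often than those of BRG1-only peaks over all widths, but not detectably so in wide peaks. Over all widths 46.1% of sites (44.8 to 47.5) and 42.2% of BRG1-only peaks (41.5 to 42.8) were named for a gene with a BRG1 and BRM promoter peak. The intervals overlapped in peaks of 1000 to under 1500 bp, with 44.6% of sites (42.2 to 47.1) and 42.1% of BRG1-only peaks (40.1 to 44.1), and in wider ones, with 48.3% of sites and 45.7% of BRG1-only peaks. A SNF5 promoter peak was present at the named gene for 18.7% of sites (17.7 to 19.8) and 17.3% of BRG1-only peaks (16.9 to 17.8). In peaks of 1500 bp and more the share was lower at sites, with 18.75% of sites (16.5 to 21.2) and 22.0% of BRG1-only peaks (18.6 to 25.7). From 1000 to under 1500 bp the shares were 18.5% of sites and 18.6% of BRG1-only peaks. The intervals overlapped in both classes and over all widths, so no order of the SNF5 shares is established. A gene with many peaks is counted again with each of them.

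Although the rule kept out any overlap with SNF5, SNF5 peaks lay nearer to the sites than to BRG1-only peaks. The median gap to the closest SNF5 peak was 64785 bp (60786 to 68563) for sites and 118714 bp (115773 to 121615) for BRG1-only peaks. A SNF5 peak lay within 10 kb of 18.3% of sites (17.3 to 19.4) and of 12.0% of BRG1-only peaks (11.6 to 12.4). The difference was also seen 3 kb or more from a TSS, with 13.8% of sites (12.8 to 14.9) and 8.31% of BRG1-only peaks (7.93 to 8.70). By width, the shares within 10 kb were 26.3% of sites and 12.49% of BRG1-only peaks under 500 bp. From 1500 bp up they were 17.1% of sites (14.9 to 19.4) and 14.6% of BRG1-only peaks (11.8 to 17.8), and these intervals overlapped.

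The edges of the rule held few sites. The smallest gap to SNF5 was 21 bp, at an intron site of ZMIZ1 (chr10:79229010-79229505), and 57 sites had a SNF5 peak within 500 bp. The smallest overlap with BRM was 2 bp, at a distal site of BUB3, a spindle checkpoint gene, and 47 sites overlapped BRM by under 50 bp. On the other side, 152 BRG1-only peaks (0.619%) had a BRM peak within 100 bp. Just inside the width limit were peaks of 2999 bp at MIR4648, 2996 bp at WNK2 and 2996 bp at RPL23AP16. Just outside it were peaks of 3003 bp at PMEPA1, 3010 bp at NFIL3 and 3011 bp at MKNK2, out of 91 intron or distal peaks over the limit that met BRM and no SNF5. At the promoter limit, 4 sites lay 999 bp from the TSS, among them SUN1, RICTOR and TGFBRAP1, whereas promoter peaks reached 998 bp.

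Sites made up an unequal share of BRG1 peaks from chromosome to chromosome. Chromosome 19 had the highest share, with 239 sites among 823 BRG1 intron or distal peaks (29.0%, 26.0 to 32.3), followed by chromosome 17 with 25.0% (22.7 to 27.4) and chromosome 20 with 24.0% (21.7 to 26.4). Chromosome X had the lowest, with 9 of 138 peaks (6.52%, 3.03 to 12.0), then chromosome 4 with 96 of 1298 (7.40%, 6.03 to 8.96). The median over 23 chromosomes was 16.6%.

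Among peaks of 1000 bp or more the share was 55.6% on chromosome 19 and 26.6% on chromosome 4, so chromosome 19 was again above chromosome 4. Their gene content differed too, with 1451 protein-coding RefSeq genes on chromosome 19 and 770 on chromosome 4. The lists hold few peaks on chromosome X (84 BRM and 0 SNF5 peaks) and on chromosome 22 (86 BRM and 2 SNF5 peaks). Whether the authors' filter took part in that was not tested.

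**Figure D3:**
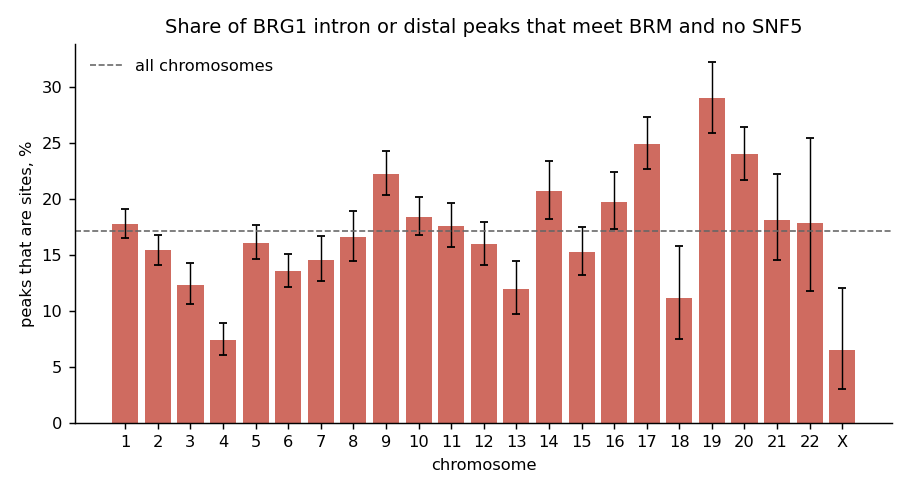
Percent of BRG1 intron or distal peaks under 3000 bp that are sites (bars), by chromosome, with exact 95% binomial intervals (error bars) and the share over all chromosomes, 17.2% (dashed line). Chromosome 19 stands highest at 29.0%, and chromosomes X and 4 stand lowest at 6.52% and 7.40%.

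Many sites lay side by side. Within 12500 bp, 36.9% of sites (35.6 to 38.2) had another site, which made 798 groups of 2 or more and 24 groups of 5 or more. Some neighbours shared a BRM peak, since 131 BRM peaks met 2 or more sites each. No matching share is given for BRG1-only peaks with a neighbour of their own class. Some other BRG1 peak lay within 12500 bp of 82.3% of sites and of 73.3% of BRG1-only peaks, and in the 4 width classes the share was higher at sites by 7.64 to 7.81 percentage points.

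The 9 sites of the largest group ran over 35957 bp at PWWP2B, a gene of a PWWP-domain chromatin protein (chr10:132393913-132429869). They were 331 to 2395 bp wide, 4 of them intron and 5 distal, and the span held 14 BRG1, 15 BRM and 2 SNF5 peaks. The widest, an intron site (chr10:132397287-132399681) 1314 bp from the TSS of PWWP2B, met a BRM peak of 1593 bp. The 2 SNF5 peaks lay between the sites, under a BRG1 peak that was therefore not one.

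The group at NOTCH1, the receptor of Notch signalling, and its antisense neighbour NALT1 had the shortest span of the 5 largest groups. It held 8 sites in 24281 bp (chr9:136528259-136552539), with 12 BRG1, 16 BRM and 1 SNF5 peaks, and includes the NALT1 window printed above. Also on chromosome 9, 8 intron sites in a group at NIBAN2 (FAM129B in the files) spanned 49712 bp (chr9:127536696-127586407) with 18 BRM and no SNF5 peaks. At ACTN4, which encodes the actin crosslinker alpha-actinin-4, and its neighbour EIF3K, 7 sites (chr19:38636959-38667829) lay among 3 SNF5 peaks. A further 7 sites lay at GLIS2 and TFAP4 (chr16:4290179-4324278), both genes of transcription factors, with 8 BRM and no SNF5 peaks.

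**Figure D4:**
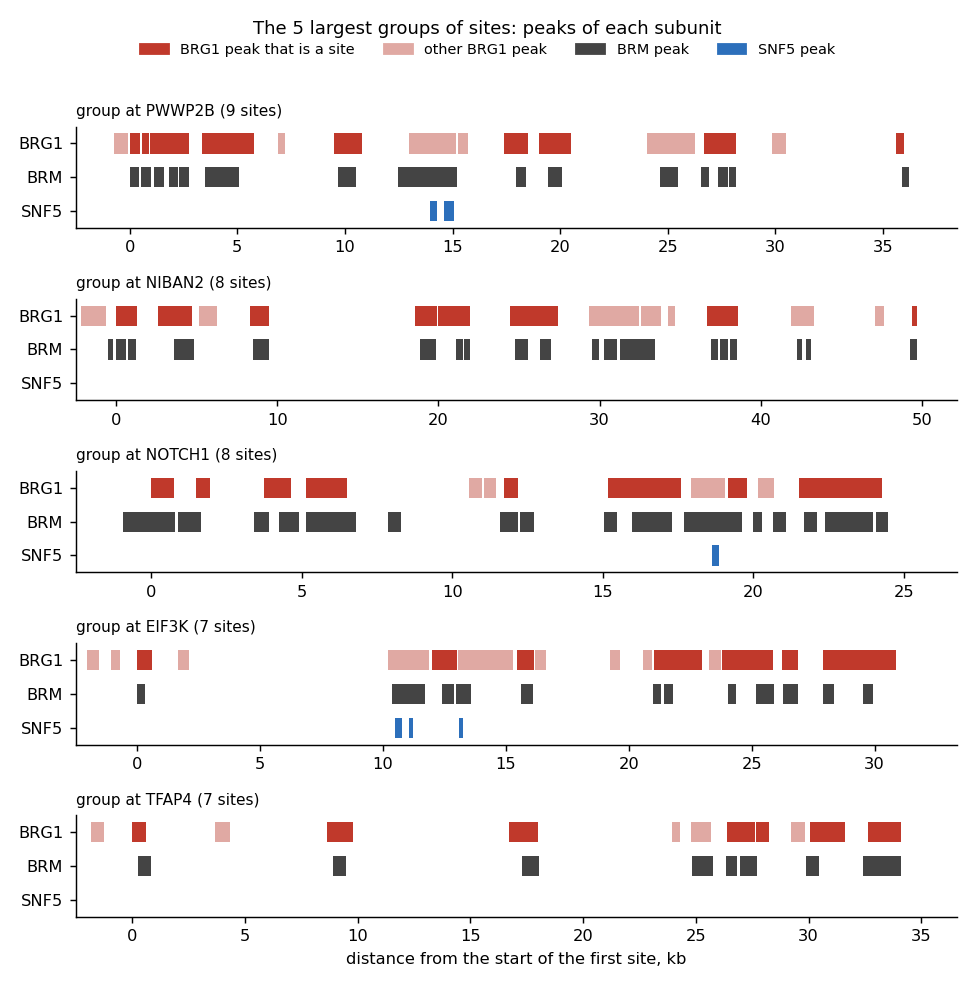
The 5 largest groups of sites (of 4 groups with 7 sites, the 2 that cover the most bp are shown), with the peaks of BRG1, BRM and SNF5 in rows and the distance in kb from the start of the first site on the x axis. Dark red BRG1 peaks are sites and pale ones are other BRG1 peaks, and each site stands over a BRM peak while the few SNF5 peaks (2, 0, 1, 3 and 0 from top to bottom) stand under pale ones.

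The sites were spread thinly over many genes. Of the 5257 sites, 3008 (57.2%) were named for a protein-coding gene, and the other sites are not in the counts that follow. The 3008 sites named 1942 of 19974 protein-coding RefSeq genes as the nearest TSS (9.72%). Of these genes, 1339 had 1 site, 360 had 2 and 243 had 3 or more. Named genes were longer, with a median length of 45598.5 bp against 24170.5 bp over all protein-coding genes. A gene named by a site is the nearest one and was not shown to be its target.

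GSE1, which encodes a partner of a histone deacetylase complex, had the most sites. Its 14 sites, out of 28 BRG1 intron or distal peaks named for it, were all in introns, 1259 to 39870 bp from a TSS, and were 490 to 1935 bp wide. ZMIZ1, a coregulator of transcription, had 11 sites out of 35 peaks, and PVT1, the long noncoding RNA beside MYC, had 10 out of 27. NECTIN1, a cell adhesion molecule, and NIBAN2 had 9 sites each, out of 18 and 15 peaks. LINC00111 also had 9. BAIAP2, a regulator of the actin cytoskeleton, had 8 of 13, MYOF (myoferlin, a membrane repair protein) had 8 of 15, and AC091114.1 had 8 of 21. EFNA5 had 7 of 30. At these 10 genes between 23.3% and 61.5% of BRG1 intron or distal peaks were sites, against 17.2% over the genome, a difference that follows in part from choosing genes by their number of sites.

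Scaled to gene length, other genes came first. EPHB3, an Eph receptor for ephrins, had 4 sites inside 20624 bp, or 19.4 per 100 kb, against 0.202 per 100 kb over protein-coding genes of 20 kb or more. Of those genes, 221 of 10991 (2.01%) had 3 or more sites inside. All 5 BRG1 peaks named for EPHB3 were sites, and one of them, 2450 bp wide and annotated 1004 bp from the TSS, covered the RefSeq start. PWWP2B also reached 19.4 per 100 kb.

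RIPK4, a kinase needed for epidermal differentiation, had 5 sites inside, or 18.1 per 100 kb. GLIS2 had 16.1, BAG3, a partner of the HSP70 chaperone, had 15.1, and EFHD2, a calcium-binding actin regulator, had 14.7 sites per 100 kb. PEDS1 (TMEM189 in the files, a plasmalogen-forming desaturase) had 14.1 and NOTCH1 had 13.6. TRAF7, a ubiquitin ligase, had 13.4, and PDGFA, a growth factor of mesenchymal cells, had 12.8. Of these 10 genes, 5 (EPHB3, PWWP2B, BAG3, PEDS1 and NOTCH1) had no BRG1 peak annotated as promoter, although the site at EPHB3 covered the start and at BAG3 a BRG1 peak 5520 bp wide covered the RefSeq start.

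Genes of adhesion, basal epithelium and epithelial transcription factors were named by sites more often than protein-coding genes at large, and they also had more BRG1 peaks. The background is 9.72% of genes named and 17.8% of BRG1 intron or distal peaks of protein-coding genes being sites (3008 of 16891). The lists were chosen with earlier results of these data known, and the counts were not tested. Some genes, EGFR, PMEPA1 and GADD45A among them, are in more than 1 list, so the lists are not independent.

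Of the focal adhesion and actin list, 11 of 24 genes were named (45.8%), by 30 sites out of 136 BRG1 peaks (22.1%), and the median gene length was 94558 bp. The crosslinkers ACTN4 and ACTN1 had 6 sites each, out of 12 and 13 peaks. TNS3 and TNS1, tensins that tie integrins to actin, had 5 of 25 and 4 of 7. CAV1 (caveolin) had none, out of 3 BRG1 peaks.

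Of the epithelial transcription factor list, 9 of 20 genes were named (45%), by 17 sites out of 110 BRG1 peaks (15.5%). RUNX1 had 6 of 27, GRHL3 had 3 of 5 and EHF had 1 of 9. BNC1 (basonuclin) had 12 BRG1 intron or distal peaks and no site. In the basal epithelium list 11 of 26 genes were named (42.3%), by 24 sites out of 124 peaks (19.4%). PKP1, a desmosomal plakophilin, had 6 of 15, EGFR had 6 of 27, and CD44 and PLEC had 2 each. The desmosomal cadherin genes DSC3 and DSG3 on chromosome 18 had none, with no BRG1 intron or distal peak named for them.

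Signalling lists stood between. YAP and TEAD genes were named in 9 of 24 cases (37.5%), by 27 of 125 peaks. Among them MYOF had 8 sites, and TEAD1, a DNA-binding partner of YAP, had 7 of 20. AMOTL1, a YAP-binding angiomotin, had 0 of 9 by nearest TSS, although 1 site lay inside the gene. TGF-beta and SMAD genes were named in 10 of 29 cases (34.5%), by 24 of 99 peaks. The signal transducer SMAD3 had 6 of 17, all in introns, the feedback inhibitor PMEPA1 had 5 of 16, and the corepressor SKI had 3 of 6. EGFR and MAPK feedback genes were named in 7 of 22 cases (31.8%), by 15 of 82 peaks. EGFR, which is also in the basal epithelium list, had 6 of 27. The phosphatase gene DUSP5 had 3 of 5 and the ligand gene TGFA 2 of 8, whereas the ligand gene AREG had 0 of 6.

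NF-kB and cytokine genes were named in 7 of 24 cases (29.2%), led by TNIP1, an inhibitor of NF-kB, with 4 of 6. Cell cycle genes were named in 6 of 21 cases (28.6%), with CCND1 and CCND2 at 2 sites each. The AP-1 list had 4 of 17 genes named (23.5%), and 10 of its 30 BRG1 peaks were sites. FOSL2 and MAFK had 2 sites each. Of p53 targets 3 of 20 were named (15%), and none of the 20 had a site inside the gene or within 1 kb of it. Counted that way, 4 NF-kB and cytokine genes had a site.

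Lists of other tissues stood on both sides of the background. Hepatocyte and blood cell genes were named in 0 of 20 cases each, and they had 3 and 7 BRG1 intron or distal peaks. Endothelial and fibroblast genes were named in 3 of 20 cases (COL6A3, PDGFRA and PDGFRB, with 1 site each), and neuronal genes in 5 of 20 cases, by 7 of 30 peaks, with CAMK2A and GRIN1 at 2 sites each. Luminal prostate genes were named in 5 of 20 cases (25%), by 9 of 36 peaks, of which PMEPA1 had 5. With a site inside the gene or within 1 kb there were 3 neuronal and 2 luminal genes. FOXA1 had 1 site out of 3 peaks. Ribosomal protein genes were named in 2 of 40 cases (5%), and their median length was 5417.5 bp.

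The share of BRG1 peaks that were sites was 15.5 to 25% in 12 of these 16 lists and 33.3% in the AP-1 list, against 17.8% over all protein-coding genes, so most lists differed more in how many BRG1 peaks they had than in the share of those that were sites. For the cell type, 4 of 6 defining markers of basal prostate epithelium were named by sites (KRT14, ITGB4 and COL17A1 among them), against 1 of 6 luminal ones (KRT18), 0 of 4 of blood, 0 of 3 of endothelium, 0 of 3 of hepatocytes and 2 of 3 of fibroblasts (PDGFRA and PDGFRB).

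**Figure D5:**
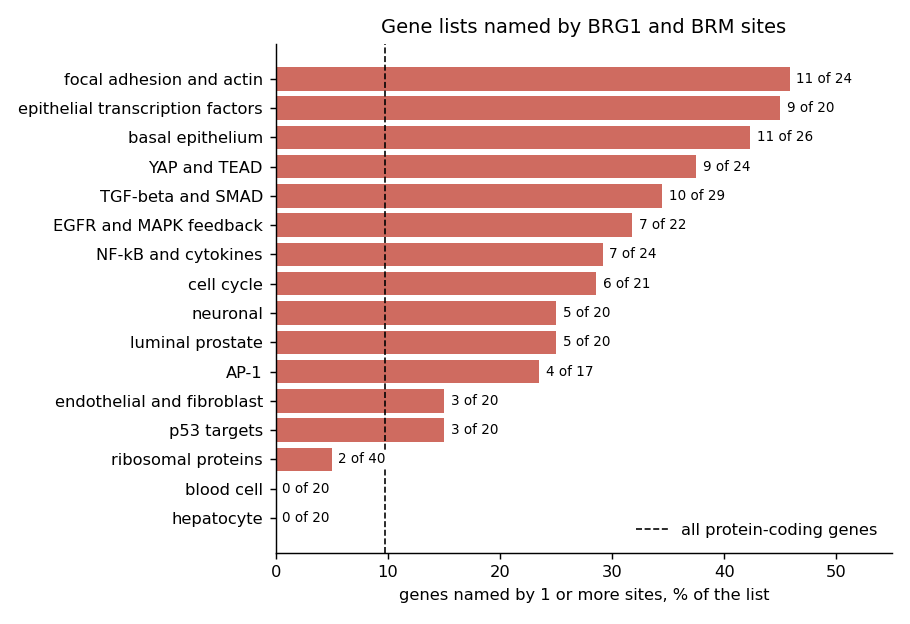
Percent of genes of each list named by 1 or more sites (bars, with the counts beside them) and the share over all protein-coding genes, 9.72% (dashed line). Focal adhesion, epithelial transcription factor and basal epithelium lists stand at 42.3% to 45.8%, and ribosomal protein, blood cell and hepatocyte lists stand below the line.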

How the data were processed

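The 3 deposited peak lists give start, end, width, place (promoter, intron, exon or distal), nearest TSS and distance in bp for each peak, per the file headers. The submitters' processing notes name Bowtie2, SAMtools, MACS2, deepTools 2.5.2 and hg38 but not what each was used for. Not given in the sources used here are the threshold, the input, the filter and whether the 2 replicates were pooled. The members and the gene lists were chosen with earlier results of these data known.

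Overlaps of at least 1 bp were counted in Python 3.11.15 (with scipy 1.17.1, pandas 2.3.3, numpy 2.4.6 and, for plots, matplotlib 3.10.9). The counting was checked on simulated peaks with known overlaps, and against bedtools 2.31.1 on the deposited lists. Shares have Clopper-Pearson intervals and medians order-statistic intervals, at 95% confidence. Where a site met several BRM peaks, the one with the largest overlap gave its position and width. A RefSeq gene (GRCh38.p14) was found by symbol or synonym for 4015 sites (76.4%), and 2 names shared by many small RNA copies were left out of gene counts. Promoter sequences are from RefSeq (GRCh38.p14). Windows on chromosome 8 were not considered for printing. No genome sequence was used here, so motifs were searched in promoter windows inside peaks only, a choice made after the lists were seen, as were the width classes and the split at 15 CpG.

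Named were the 10 sites with the widest BRM peaks (the first 3 and the BRM peak shared by 3 sites are described), the 10 genes with the most sites, the 10 densest protein-coding genes of 20 kb or more with 3 or more sites inside, the 5 largest groups of sites, the 5 sites farthest from a TSS, the peaks nearest to the limits of the rule, and from every gene list at most 4 members with the most sites and at most 2 with none, of which those that say most are given. Some members that this choice takes are left out of the text. Ties went to the wider BRM peak, and between groups of sites to the larger covered length. Alternatives were other rules of overlap, a SNF5 margin, no width limit, other distances, wider peaks only, leaving out chromosome 20 and gene spans in place of the nearest TSS. The histone and input samples were not analysed here.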

Additional observations from a re-analysis of the deposited data

How the results depend on the processing

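No paired analysis was possible because each group has 1 list, whose columns carry no replicate, and no value comes from a test. Of 70 alternatives to the main values 36 stayed within the interval or within 1.5 times the value, 32 moved and 2 reversed. Of 64 alternatives to the counts of listed genes 19 moved. With gene spans in place of the nearest TSS, p53 targets fell to 0 against 3, luminal prostate genes to 2 against 5, NF-kB and cytokine genes to 4 against 7, neuronal genes to 3 against 5 and ribosomal protein genes to 1 against 2. The other 14 moved under a stricter overlap, a larger distance or wider peaks.

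Requiring a reciprocal overlap of 50% left 2174 sites against 5257, with an intron share of 54.5% against 58.0%, a median distance of 6931 against 7609 bp, a BRM width of 569 against 459 bp, 19.6% against 36.9% of sites with a neighbour, a spread of site shares over chromosomes of 13.2 against 22.5 points and 5.10% against 9.72% of genes named. Among sites 3 kb or more from a TSS the intron share was 53.3%, the BRM width 448 bp, the share of BRM centres within 150 bp 51.2% against 49.8%, the share within 10 kb of SNF5 13.8% against 18.3%, the share with a neighbour 32.2%, genes named 7.12% and named genes with a BRG1 and BRM promoter peak 43.4% against 46.1%. With BRG1 peaks wider than the median of 583.5 bp, 46.8% of BRM centres lay within 150 bp, the spread over chromosomes was 30.4 points and 8.39% of genes were named. With no SNF5 peak within 1 kb, 15.9% lay within 10 kb of SNF5. A neighbour was present for 25.3% of sites within 5 kb and 60.4% within 50 kb, and BRM centres lay within 75 bp at 28.0% and within 300 bp at 78.2%; wider limits take in more by construction. The cause of the other changes was not tested.

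In the width classes, added after the data were seen, sites minus BRG1-only peaks differed in intron share by -11.0 points under 500 bp against -6.74 over all widths, in median distance by -3988.5 bp under 500 bp and -4437.5 bp from 1500 bp up against -2329 bp, and in covered RefSeq starts by 1.497, 1.504 and 1.54 points in the 3 classes under 1500 bp against 2.49. The difference in named genes with a BRG1 and BRM promoter peak was 2.58 points from 1000 bp and 2.64 from 1500 bp against 3.98, and that in the share within 10 kb of SNF5 was 13.8 points under 500 bp and 2.43 from 1500 bp against 6.32. The difference in named genes with a SNF5 promoter peak changed sign, at -0.025 points from 1000 bp and -3.27 from 1500 bp against 1.40. The intervals of sites and BRG1-only peaks overlapped in all of these. The sign held in all 4 classes for the other measures, the share near another BRG1 peak included. The lists carry no depth, so a site near the authors' threshold cannot be told from a firm one.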
